A study of Homo sapiens with 14 samples.

Results

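Among 65774 chromatin regions measured by ATAC-seq in clones of the breast cancer line SUM149PT, 195 (0.296%) were closed in clone M1 and open in all other groups. They were chosen by their levels. Each count was divided by its library total, expressed as CPM (counts per 1000000 counts of the library), raised by 0.5 and put on a log2 scale. A region was kept where the mean of M1 lay at least 2 below the lowest mean of the other 6 groups, a distance called the gap here. The levels in M1 against the other groups therefore describe how the regions were picked and carry no test.

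ATAC-seq uses a transposase that inserts sequencing adapters where DNA is not wrapped in nucleosomes, so that reads collect over open promoters and enhancers. Promoters lie at gene starts and tend to be open in most cells. Enhancers lie farther away and are open in the cells that use them. In epithelial-mesenchymal transition (EMT), the subject named in the series title, epithelial cells lose junctions and polarity and take on mesenchymal traits, and enhancers of both programmes open and close.

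SUM149PT is a long-established human cell line. The labels call it inflammatory breast cancer without oestrogen or progesterone receptors. The groups were the clones M1, M2, EM1, EM2, EM3 and E and the line they came from (Parental), each with 2 libraries of untreated cells, 14 in all. Each letter name stands for 1 clone, so a difference between groups is one between clones, and the labels do not spell the letters out. Separate cultures are not mentioned for the paired libraries, so a p-value covers no more than the spread of these libraries, which may be technical.

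Library totals ran from 8138944 to 16786823 counts. At 12 regions with M2 counts but without a count in M1, EM1, EM2, EM3 and Parental, E replicate 1 had 23.3% of the M2 level and E replicate 2 had 1.95%, and the rule takes E from replicate 2 only. Of the markers of the line, a region at an end of the epithelial keratin gene KRT8 had a mean of 23.4 CPM in M1 and 27.1 CPM in Parental. CDH1, the gene of E-cadherin, had 2.57 CPM in M1, 0.456 CPM in M2 and 39.7 CPM in Parental. The mesenchymal filament gene VIM had 54.3 CPM in M1, 60.1 CPM in M2 and 21.0 CPM in Parental. None of these marker regions was among the 195.

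Of the 195 regions, 5 (2.56%) overlapped a promoter window of a gene, against 15.5% of all regions. Such a window runs from 250 bases before to 50 bases after a start in RefSeq (GRCh38.p14). The sequences of these windows are given here because no other window of the sequence table overlaps one of the 195. The ADGRL2 and LINC01133 windows lie wholly inside their regions, while FAM43A shares 235 of its bases with its region, KLHL6-AS1 155 and DAP-DT 123. The ADGRL2 region lies 294 kb from the nearest end of ADGRL2, so its window is not at an outer end of that gene. Each is written 5′ to 3′, and capitals mark matches to the motifs searched.
DAP-DT, chr5:10760786-10761085, plus strand: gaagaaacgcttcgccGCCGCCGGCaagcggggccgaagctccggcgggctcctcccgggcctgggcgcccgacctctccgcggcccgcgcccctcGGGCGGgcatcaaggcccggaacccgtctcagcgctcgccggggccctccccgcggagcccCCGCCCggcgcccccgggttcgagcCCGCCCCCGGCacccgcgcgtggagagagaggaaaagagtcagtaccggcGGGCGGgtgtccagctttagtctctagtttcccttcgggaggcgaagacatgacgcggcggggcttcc
ADGRL2, chr1:81699358-81699657, plus strand: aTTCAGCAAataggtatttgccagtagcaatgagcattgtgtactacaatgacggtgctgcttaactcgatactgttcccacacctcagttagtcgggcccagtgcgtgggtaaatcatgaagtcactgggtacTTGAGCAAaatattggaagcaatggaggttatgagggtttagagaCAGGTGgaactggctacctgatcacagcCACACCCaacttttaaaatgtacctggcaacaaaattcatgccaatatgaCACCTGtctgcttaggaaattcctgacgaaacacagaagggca
LINC01133, chr1:159960974-159961273, plus strand: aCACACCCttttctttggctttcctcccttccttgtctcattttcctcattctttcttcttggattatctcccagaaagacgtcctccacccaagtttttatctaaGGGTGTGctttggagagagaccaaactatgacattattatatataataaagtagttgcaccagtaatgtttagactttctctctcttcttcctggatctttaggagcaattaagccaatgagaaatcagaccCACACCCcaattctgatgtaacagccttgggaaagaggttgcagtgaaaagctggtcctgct
FAM43A, chr3:194685633-194685932, plus strand: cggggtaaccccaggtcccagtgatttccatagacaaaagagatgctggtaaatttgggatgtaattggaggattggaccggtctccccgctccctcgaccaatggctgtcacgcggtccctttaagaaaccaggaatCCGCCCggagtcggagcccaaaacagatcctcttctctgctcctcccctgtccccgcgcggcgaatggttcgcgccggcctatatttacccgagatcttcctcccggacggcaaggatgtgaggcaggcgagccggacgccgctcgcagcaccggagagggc
KLHL6-AS1, chr3:183548485-183548784, plus strand: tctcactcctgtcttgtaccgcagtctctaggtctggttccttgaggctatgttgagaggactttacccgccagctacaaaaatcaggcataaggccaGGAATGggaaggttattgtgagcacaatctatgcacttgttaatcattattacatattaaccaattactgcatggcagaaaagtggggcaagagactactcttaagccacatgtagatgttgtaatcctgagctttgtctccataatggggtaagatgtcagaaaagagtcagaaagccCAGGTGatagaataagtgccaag

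DAP-DT is the divergent transcript of DAP, a gene of apoptosis and autophagy control. ADGRL2 encodes the adhesion receptor latrophilin 2, and LINC01133 and KLHL6-AS1 are non-coding transcripts. The DAP-DT window was the richest in G and C, at 75.3% with 43 CG pairs. FAM43A had 60.3% and 25 CG pairs, while ADGRL2 (45.0%, 5 pairs), KLHL6-AS1 (43.3%, 2 pairs) and LINC01133 (41.3%, 1 pair) lay below the medians over 35116 promoter windows, which were 58.7% and 14 pairs. So the 5 windows hold CG-rich and CG-poor promoters alike.

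The capitals come from a search on both strands for 11 motifs. GGGCGG (SP factors) stood in the DAP-DT and FAM43A windows and in 45.0% of all promoter windows. GGGTGTG (KLF factors) stood in the ADGRL2 and LINC01133 windows and in 7.56% of all. CAGGTG, the E-box bound by ZEB and SNAI repressors, stood in the ADGRL2 and KLHL6-AS1 windows and in 20.6% of all. GCCNNNGGC (TFAP2) stood in the DAP-DT window and in 23.2% of all, and 1 of its matches there overlaps an SP match. TTGCNNAA (CEBP) stood in the ADGRL2 window and in 10.5% of all, and GGAATG (TEAD) in the KLHL6-AS1 window and in 14.03% of all. No match was found in these 5 windows for TGANTCA (AP-1), AACNNGTT (grainyhead), TGTGGT (RUNX), GGAAGT (ETS) or TGTTTAC (forkhead), which 7.71%, 3.52%, 13.1%, 22.8% and 3.42% of all windows hold. These are matches of letters only, and not all lie within the regions closed in M1. The KLHL6-AS1 CAGGTG lies past the end of its region, and 2 SP matches and 1 TFAP2 match of the DAP-DT window lie before the start of its region.

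In M1 the 195 regions had low signal, from 0 to 7.05 CPM. Their median level was 0.658 CPM in M1, 9.33 CPM in M2, 12.8 CPM in EM1, 9.23 CPM in EM2, 12.5 CPM in EM3, 13.6 CPM in E and 13.7 CPM in Parental. Over all 65774 regions the median in M1 was 10.02 CPM, close to the 9.93 CPM of Parental. By library, the median over the 195 was 0.747 and 0.616 CPM in M1, against 9.69 and 9.29 CPM in M2, 13.54 and 13.04 CPM in EM1, 8.97 and 9.61 CPM in EM2, 12.9 and 12.3 CPM in EM3, 13.5 and 13.6 CPM in E, and 14.1 and 13.3 CPM in Parental. M2 and EM2, the lowest of the other groups, thus lay near their medians over all regions (8.73 and 9.62 CPM). EM1, EM3, E and Parental lay somewhat above theirs, which ran from 9.89 CPM in E to 10.7 CPM in EM1.

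**Figure D1:**
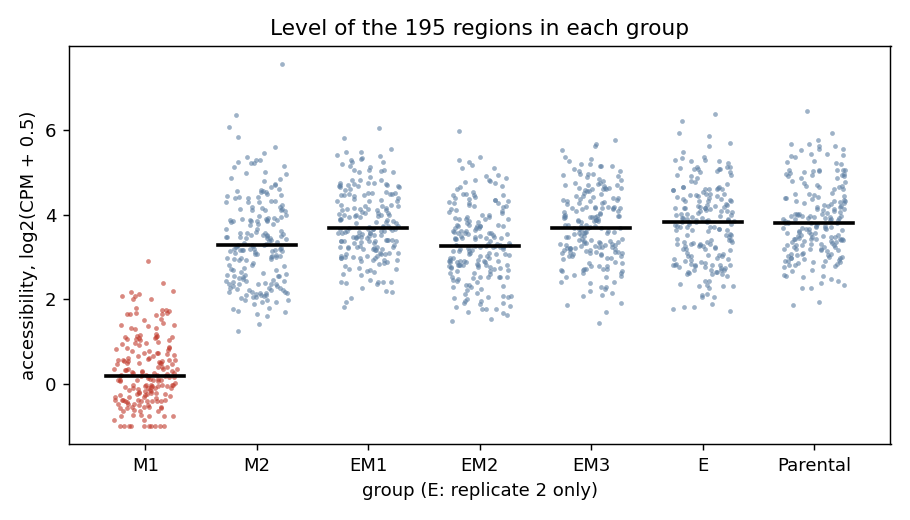
Each point is the level of 1 of the 195 regions as log2(CPM + 0.5), the mean of 2 libraries except for E, where replicate 2 alone is used, and the black bar is the median over regions. M1 has a median of 0.19, and the medians of the other groups lie between 3.27 in EM2 and 3.81 in E, a separation that the choice of the regions fixes.

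The gap ran from 2.00 to 5.49 with a median of 2.40. It was at least 2.5 in 76 regions, at least 3 in 30 and at least 4 in 7. The lowest of the other groups was M2 at 88 regions, EM2 at 63, E at 22, EM1 at 10, EM3 at 7 and Parental at 5. The 2 M1 libraries together held a median of 16 counts per region (0 to 163), against 313 counts (73 to 2001) in the 2 Parental libraries. Relative to Parental, the level in M1 had a median of 5.59% and was 19.6% at most.

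The limit of 2 falls on a slope and not in a valley. Just inside it lay regions near NOX3 (2.0011), CNTN5 (2.0015) and FYTTD1 (2.0061), and just outside it regions near SDR9C7 (1.9998), CA1 (1.9994) and STXBP5L (1.9991). There were 112 regions with a gap between 1.75 and 2, and 67 with a gap from 2 up to 2.25. Which regions are counted near the limit is therefore arbitrary.

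Both M1 libraries lay below every other library used at all 195 regions, and at 7.08% of all regions, which the choice largely fixes. E replicate 1 took no part in the choice and lay above both M1 libraries at all 195, as it did at 46.5% of all regions. The choice largely fixes this too, since it took regions low in M1 and higher in the other library of E. When the regions were chosen on the replicate 1 libraries alone (with E replicate 2, which had to serve in both sets), 208 met the limit. In the replicate 2 libraries 122 of these met it again, 191 had a gap of at least 1, 2 lay at or below 0, and the median gap was 2.25. In the other direction 251 were chosen on replicate 2, of which 122 met the limit in replicate 1, with a median gap of 1.96. None of the 195 overlapped a peak that the authors listed for M1, while 54.6% of all regions did. The low M1 level by which the regions were chosen largely fixes this.

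The level in M2 set how few regions met the rule. With M2 left out, 3018 regions (4.59% of all) lay at least 2 below the lowest of EM1, EM2, EM3, E and Parental in M1, and the 195 are those at which M2 also lay at least 2 above M1. Leaving out EM2 gave 296 regions, and leaving out any 1 of the others gave 197 to 215. The 195 make up 6.46% of the 3018, so a drop on counting M2 was shared by the table as a whole. The gene lists are to be read beside it. Of 122 regions assigned to the 28 epithelial identity genes, 35 met the limit with M2 left out, led by the junction gene CDH1, the transcription factor gene GRHL2 and the splicing factor gene ESRP1. With M2 in place 1 of the 122 met it, near ELF3, an epithelial transcription factor.

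In the lists a region was given to its closest protein-coding gene, up to 50 kb from the gene's end. Several other lists dropped as well, as did the table as a whole. Among 59 tight junction regions 8 met the limit with M2 left out and 1 with it, at CLDN1, the gene of claudin-1. Basal and p63-linked genes had 11 of 116 without M2 and 1 with it, near TP63, the basal epithelial transcription factor. Stem and progenitor genes had 4 of 51 without M2 and 1 with it, near MYC. Desmosome and hemidesmosome genes (13 of 119 without M2) and keratins (7 of 52) had none once M2 was counted. Not all lists had such a drop to show. With M2 left out, 10 of the 25 lists were at or below the 4.59% of all regions, among them mesenchymal effectors (1 of 144) and collagens and matrix proteases (1 of 109). In 6 lists, those of interferon, HOX, often deleted tumour suppressor, endothelial, fibroblast and smooth muscle, and housekeeping genes, no region met the limit either way.

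With M2 counted, the other 19 of the 25 lists held none of the 195 either. Besides those just named they include EMT transcription factors (51), Wnt (114), TGF-beta (149), AP-1 (64), Hippo and TEAD (121) and NF-kB and cytokines (108). As 0.296% of all regions are among the 195, lists of this length hold few of them by their length alone.

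ELF3 shows how such a region looks by library. The region (chromosome 1, 202056651 to 202057490, outside the gene and 39468 bases from its nearest end) had 4.59 and 2.94 CPM in M1, against 26.9 and 9.91 CPM in M2, 60.6 and 28.2 CPM in EM1, 42.4 and 16.5 CPM in EM2, 47.2 and 19.8 CPM in EM3, 63.3 and 40.2 CPM in E, and 59.0 and 36.5 CPM in Parental. Replicate 1 was the higher library in every group, and no other library reached down to M1. Its gap of 2.01 is among the smallest of the 195, and its place among them rests on single libraries. The gap was 1.32 without M2 replicate 1 and 1.73 without M1 replicate 2, both under the limit, so that no region of an epithelial identity gene would then be counted.

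The 195 regions were mostly far from gene ends. Only 7 (3.59%) lay within 1 kb of the end of a protein-coding gene, against 18.8% of all regions, and 63 (32.3%) lay over 100 kb away, against 20.3%. The median distance was 41.5 kb for the 195 and 22.5 kb for all regions. A gene body held 94 (48.2%) of them, against 57.2% of all regions. Their median width of 427 bp was near the 407 bp of all regions. The gene table gives neither strand nor exons, so starts and ends of genes, and exons and introns, are not told apart.

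Chromosomes 1, 3, 5 and 8, grouped after the counts were seen, held 105 of the 195 (53.8%), against 27.3% of all regions. Chromosome 5 had 28 of its 3474 regions among them (0.806%), chromosome 8 had 27 of 3350 (0.806%) and chromosome 3 had 27 of 4536 (0.595%). Chromosome 1, with 23 of 6608 (0.348%), was near the 0.296% of the whole table. Chromosome 21 had a high share too, but from only 5 of 679 (0.736%). Part of the excess on chromosome 5 comes from a single stretch, without which 17 remain there. Over all regions of a chromosome, the median difference of M1 from Parental on the log2 scale was -0.02 on chromosome 1, -0.21 on chromosome 3, 0.14 on chromosome 5 and -0.23 on chromosome 8, against 0.04 over the whole table. Chromosomes 3 and 8 were thus somewhat lower in M1, as was chromosome 18 (-0.32), and chromosome 5 was not.

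**Figure D2:**
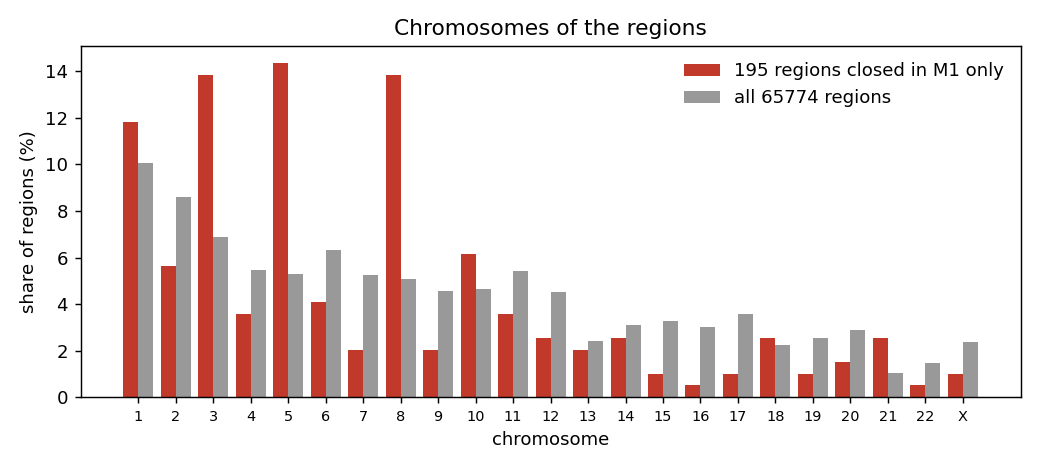
The share of the 195 regions on each chromosome (red bars, in percent) is set beside the share of all 65774 regions (grey bars). Chromosomes 3, 5 and 8 hold 13.8%, 14.4% and 13.8% of the 195, each above its share of all regions.

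Of the 7 regions with a gap of at least 4, 5 lay in 1 block on the short arm of chromosome 5. From 10551279 to 10914191 (362.9 kb), 15 consecutive regions of the table held 1 count in the 2 M1 libraries together, and 11 of the 15 are among the 195. The same 15 regions held 5213 counts in M2, 4499 in EM1, 3276 in EM2, 4766 in EM3, 2500 in E and 4738 in Parental. The block covers ANKRD33B, an ankyrin repeat gene (10564070 to 10657816), and DAP (10679230 to 10761234), and it ends short of CTNND2, the gene of delta-catenin, which begins at 10971836. Closed chromatin and DNA lost in M1 both leave no reads and cannot be told apart by these counts, and no measurement of DNA content was analysed here.

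**Figure D3:**
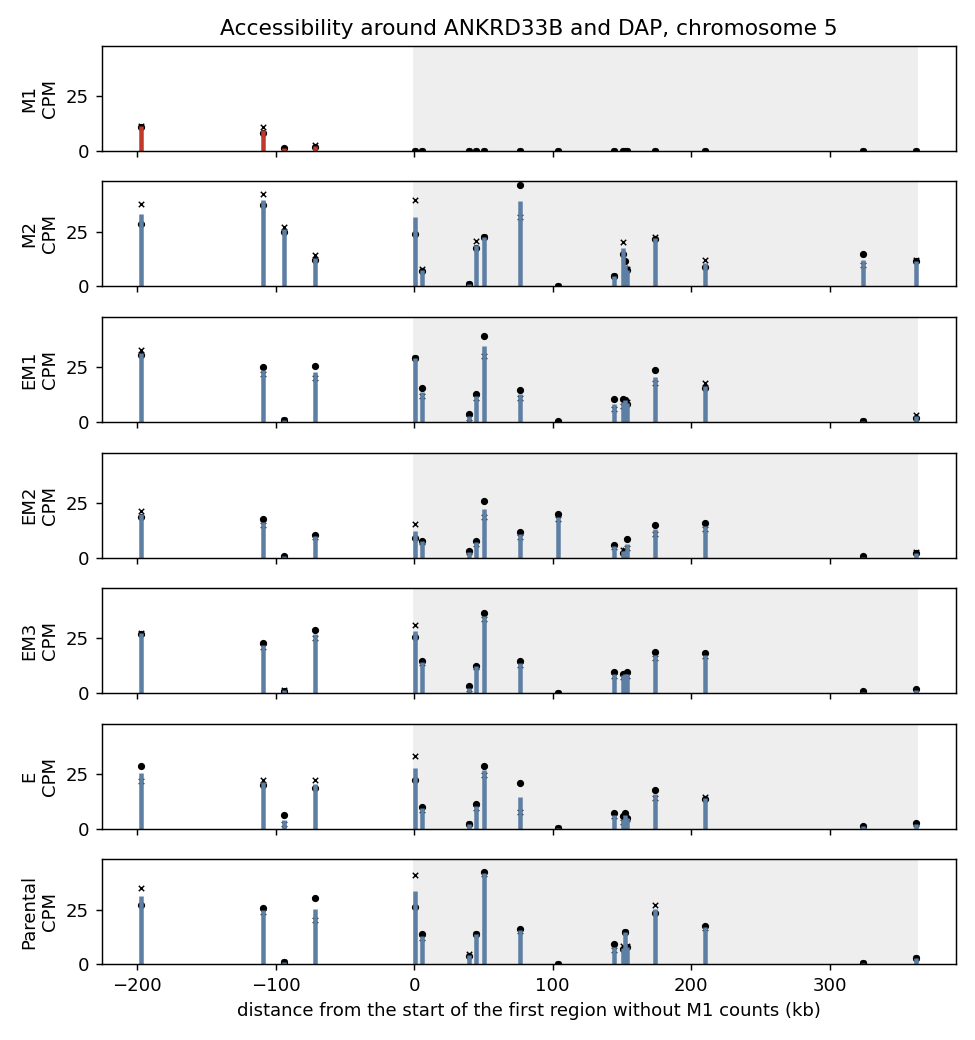
Accessibility in CPM (bar: mean of 2 libraries, dot: replicate 1, cross: replicate 2) is shown for each region by its distance in kb from the start of the block, which is shaded, with M1 in the top panel and Parental in the bottom one. M1 has 1 count in the whole block, while the regions before it still have signal in M1.

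Within the block, the largest gap of all 195 (5.49) belonged to a region inside ANKRD33B (chromosome 5, 10601243 to 10601971). It had 0 CPM in both M1 libraries, against 22.4 and 22.7 CPM in M2, 39.4 and 30.1 CPM in EM1, 26.1 and 18.5 CPM in EM2, 36.8 and 33.8 CPM in EM3, 28.9 and 24.6 CPM in E, and 42.2 and 41.3 CPM in Parental. Taking 3 counts over both M1 libraries as the floor, that is at least 334-fold lower in M1 than in Parental. Another ANKRD33B region, 7274 bases outside the gene (10556333 to 10556796), also had no M1 count against 295 in Parental, a gap of 3.97.

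At DAP, 6 consecutive regions of the table were all among the 195, with gaps from 2.68 to 4.73. The one over the gene's end (10760963 to 10761692), which the DAP-DT window printed above overlaps, had 0 CPM in both M1 libraries, against 8.94 and 12.3 CPM in M2, 15.5 and 17.9 CPM in EM1, 15.8 and 13.1 CPM in EM2, 18.4 and 16.9 CPM in EM3, 13.5 and 14.3 CPM in E, and 17.7 and 16.4 CPM in Parental. It was thus open in all 6 other groups, and at least 136-fold lower in M1 than in Parental. M2 was the lowest of the 6, with a log2 change from Parental of -0.56 (SE 0.23, edgeR adjusted p = 0.0478). In all, 10 of the 195 had no M1 count, all of them in this block, with bounds from at least 61.2-fold to at least 334-fold lower in M1.

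M1 was also low at the regions next to the block on both sides. The region before it (10479136 to 10479742, at ROPN1L, a sperm motility gene) had 56 counts in M1 and 573 in Parental. The region after it (11251340 to 11251559, inside CTNND2) had 5 counts in M1 and 99 in Parental and is itself among the 195, as is a further one inside CTNND2 (11851386 to 11851752) with a mean of 0.365 CPM in M1 and 13.6 CPM in Parental. With these, 13 of the 17 regions between 10551279 and 11851752 are among the 195.

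The 4 regions of the block that missed the limit were weak in at least 1 other group. One in ANKRD33B (10655273 to 10655677) had 0 counts in M1, 479 in EM2 and 3 to 7 in each of the other groups. Another (10875406 to 10875720) had 0 counts in M1 and 278 in M2, and 9 to 18 in each of the other groups. Both were open in a single clone and could not meet a limit set on the lowest group.

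Other groups had runs of regions without signal as well. The longest run of regions with at most 1 count per region was 15 in M1, 5 in M2, 29 in EM1, 5 in EM2, 16 in EM3, 1 in E and 7 in Parental. Those of EM1, EM2, EM3 and Parental all lay on chromosome 9, between 21591630 and 29333075. There M1 also lacked counts at 5 consecutive regions, but EM1, EM2, EM3 and Parental lacked them too, so none of these could meet the limit.

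Outside the block, 184 regions remained, and their signal was low but present. They held 1 or more M1 counts each, with a median of 17, and a median level of 5.80% of Parental. In 10 of them M1 had 3 counts or fewer, too few for a firm fold. At PPP1R42, the gene of a protein phosphatase 1 regulatory subunit, M1 had 2 counts and Parental 248. Near MYC, 1 such region (127596179 to 127596625) had 1 count in M1 and 257 in Parental.

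Most of the 195 lay apart from one another. When regions less than 1 Mb apart were joined, the 195 fell into 148 stretches, of which 125 held 1 region. For 145 of the 195, at least 2 other regions lay within 50 kb, and the median difference of these neighbours between M1 and Parental was between -1 and 1 on the log2 scale at 94 (64.8%). It was -2 or lower at 21. Within 500 kb it was between -1 and 1 at 146 of 195 and -2 or lower at 18. The middle value of these neighbour medians was -0.59 within 50 kb and -0.36 within 500 kb. Over all regions of the table the median difference was 0.04, so the surroundings were somewhat lower in M1. Such neighbour counts were not made for the whole table. Only 7 stretches held 3 or more of the 195, 38 in all.

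After the block on chromosome 5, the richest stretch lay on chromosome 3 from 189572242 to 190729159. It held 7 of the 195 among its 59 regions, near TP63, P3H2, CLDN1 and IL1RAP. TP63 specifies basal epithelial cells, P3H2 hydroxylates collagens, claudin-1 seals tight junctions and IL1RAP is a subunit of the interleukin-1 receptor. The 52 other regions of the stretch had a median difference between M1 and Parental of -0.98 on the log2 scale, with a range of -5.96 to 1.51, and 5 of them were at or above 0.

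**Figure D4:**
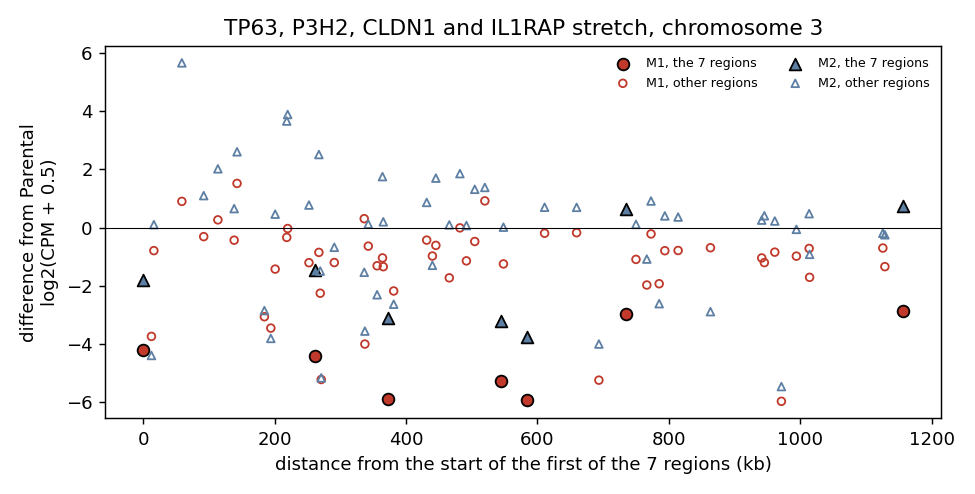
The difference from Parental in log2(CPM + 0.5) is shown for M1 (red circles) and M2 (blue triangles) at 59 regions, by distance in kb from the first of the 7 regions closed in M1 only (filled). The other 52 regions (open) have an M1 median of -0.98, and 9 of them are 2 or more below Parental in M1.

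The 2 TP63 regions differed from CLDN1 in M2. The one outside TP63 (189572242 to 189572723) had 0.534 and 0.411 CPM in M1, against 5.71 and 3.72 CPM in M2, 10.6 and 18.8 CPM in EM1, 10.5 and 15.3 CPM in EM2, 16.0 and 23.8 CPM in EM3, 14.5 and 23.2 CPM in E, and 18.3 and 16.8 CPM in Parental. M2 stood between M1 and the other groups, as it did at the region inside TP63 (189834007 to 189834363), with a mean of 0.556 CPM in M1, 7.81 CPM in M2 and 22.2 CPM in Parental. The region inside CLDN1, 748 bases from its end (190306455 to 190306996), had 2.67 and 1.03 CPM in M1, against 22.1 and 30.4 CPM in M2, 16.1 and 15.5 CPM in EM1, 12.4 and 10.5 CPM in EM2, 15.9 and 14.5 CPM in EM3, 12.3 and 12.4 CPM in E, and 18.6 and 14.8 CPM in Parental. There M2 was the highest group.

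Around MYC, 6 regions on chromosome 8 from 127041774 to 128164685 were among the 195, of 101 in that stretch. MYC, a transcription factor gene that drives growth, is known for distant enhancers, and POU5F1B is a retrogene in the same interval. The 95 other regions of the stretch had a median difference of -0.16 between M1 and Parental, and 42 of them were at or above 0, and those regions were on the whole as open in M1 as in Parental. M2 was high over the whole stretch: at the 95 other regions its median difference from Parental was 3.85 on the log2 scale, and 85 of them were 2 or more above Parental. More DNA and more open chromatin in M2 cannot be told apart by these counts. The region nearest to MYC (127748803 to 127749399, 5852 bases outside) had 1.17 and 0.890 CPM in M1, against 16.6 and 11.5 CPM in M2, 8.34 and 11.02 CPM in EM1, 13.7 and 11.03 CPM in EM2, 8.76 and 9.73 CPM in EM3, 12.3 and 8.003 CPM in E, and 10.6 and 8.50 CPM in Parental.

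All 6 regions lay below that median in M2, from -2.58 to 2.97 on the same scale. The one near POU5F1B (127400747 to 127401709) had a mean of 1.27 CPM in M1, 14.2 CPM in M2, 66.3 CPM in EM1, 62.5 CPM in EM2, 49.0 CPM in EM3, 75.2 CPM in E and 87.0 CPM in Parental, so that M2 was far below the others. The one farthest along (128164442 to 128164685) had 0.312 CPM in M1, 81.1 CPM in M2, 11.5 CPM in EM1, 6.36 CPM in EM2, 8.57 CPM in EM3, 14.1 CPM in E and 9.92 CPM in Parental. Its M2 level, 2.97 above Parental on the log2 scale, was below the M2 median of the stretch. In E, its libraries had 20.3 and 7.89 CPM, the first being the one with M2-like signal.

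Further stretches of 3 lay at TRPS1, a repressor of the GATA type, at CCDC6 and ANK3, and at ADIPOQ, RTP1 and MASP1. In the last of these (chromosome 3, 186869393 to 187212210) the other 14 regions had a median difference of -2.04 between M1 and Parental, lower than in any other stretch of 3 or more.

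Close to gene ends, the regions with the largest gaps after DAP, PPP1R42 and ANKRD33B were these. One inside PCDHA1 and 14 further genes of the protocadherin alpha cluster (chromosome 5, 141004088 to 141004690) had 1.71 and 2.60 CPM in M1, against 28.3 and 29.3 CPM in M2, 22.4 and 34.1 CPM in EM2, and 52.2 and 55.0 CPM in Parental, a gap of 3.43. One over an end of CPQ, the gene of carboxypeptidase Q (chromosome 8, 96644954 to 96645754), had 0.854 and 0.137 CPM in M1, against 34.9 and 33.6 CPM in M2 and 8.74 and 8.33 CPM in Parental, a gap of 3.28. These 2 differ in where M2 stands, below Parental at PCDHA1 and above it at CPQ.

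The others by the same rule were RNF185, an E3 ubiquitin ligase gene (gap 3.11), C1orf116 (3.06), SLAMF9, at the region that overlaps the LINC01133 window (2.78), GLI4, a zinc finger gene (2.73), REDIC1 (2.53), NBAS, a gene of transport between Golgi and endoplasmic reticulum (2.52), RIPK2, a kinase of innate immune signalling (2.51), and FAM43A (2.46). At C1orf116 (chromosome 1, 207020077 to 207020528, inside the gene) M1 had 1.17 and 0.753 CPM, against 9.69 and 13.9 CPM in M2, 49.3 and 38.8 CPM in E and 36.9 and 27.9 CPM in Parental. The FAM43A region, which the printed promoter window overlaps, had 2.67 CPM in each M1 library, against 32.6 and 37.0 CPM in M2 and 28.7 and 21.6 CPM in Parental.

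Some regions with large gaps lay far from any gene end, and these were chosen after their values were seen. One 158696 bases from EFNA5, the gene of an ephrin ligand (chromosome 5, 107217653 to 107218198), had 0.747 and 0.548 CPM in M1, against 38.2 and 48.7 CPM in M2 and 43.8 and 41.8 CPM in Parental, and its gap of 4.30 was the largest outside the block. One 468618 bases from GATA3, a luminal transcription factor gene, had a mean of 0.686 CPM in M1, 14.4 CPM in M2 and 37.4 CPM in Parental. One inside TCF7L2, which encodes an effector of Wnt signalling, had a mean of 0.658 CPM in M1, 14.02 CPM in M2 and 32.4 CPM in Parental. Distance says nothing of which gene such a region serves.

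How the other groups differed among themselves at the 195 was tested, since the rule does not compare them. Each was set against Parental with edgeR's quasi-likelihood test over 65771 regions, with Benjamini-Hochberg adjustment and a call at an adjusted p under 0.05. All 5 comparisons share the Parental libraries. The rule also bars any group from lying near the M1 level, which trims the lowest values. Of the 195, 134 (68.7%) lay above the all-region median in Parental. The changes from Parental, and the shares called, are therefore not free of the choice.

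M2 had the most calls. Of the 195, 75 (38.5%) were lower in M2 than in Parental and 25 (12.8%) were higher, against 34.9% and 32.1% of all regions. The share of falls was thus near the background and the share of rises below it. The median log2 change was -0.56 over the 195 and -0.01 over all regions. At the 75 falls the median level was 0.598 CPM in M1, 6.02 CPM in M2 and 19.1 CPM in Parental. At the 25 rises it was 0.487 CPM in M1, 23.8 CPM in M2 and 10.3 CPM in Parental. The choice of the regions and the direction of the call put M1 and M2 on opposite sides of Parental there.

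**Figure D5:**
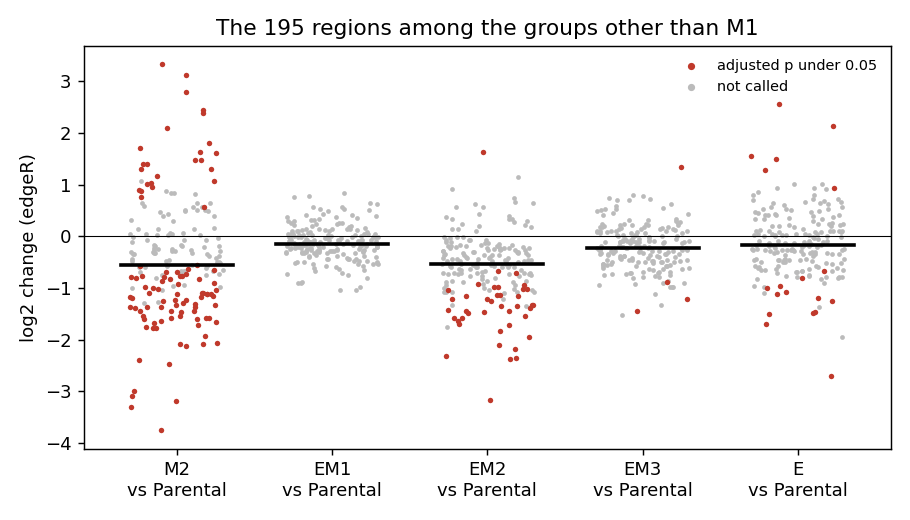
Points are the edgeR log2 changes of the 195 regions in each clone against Parental (red where the adjusted p is under 0.05, grey otherwise), and black bars are medians. The medians are -0.56 in M2, -0.14 in EM1, -0.54 in EM2, -0.22 in EM3 and -0.17 in E.

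IRX2, a homeobox gene, had 2 of the 195 that moved in opposite directions in M2. The one 48866 bases away (chromosome 5, 2685668 to 2686769) had 1.71 and 1.51 CPM in M1 and rose to 158 and 223 CPM in M2, against 21.2 and 19.5 CPM in Parental. Its log2 change in M2 was 3.33 (SE 0.25, edgeR adjusted p = 1.71e-07). The one 28656 bases away (2780333 to 2781046) had 0.213 and 0.137 CPM in M1 and fell to 3.01 and 4.41 CPM in M2, against 48.7 and 35.1 CPM in Parental, a log2 change of -3.31 (SE 0.30, adjusted p = 9.87e-07). Further rises in M2 were at SCCPDH (2.45) and NSUN3, a mitochondrial RNA methyltransferase gene (2.38).

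The largest fall in M2 was at P3H2, the closest gene of 3 regions closed in M1 only, all called lower in M2. At 1 region outside the gene (190155674 to 190156230) M2 had 2.58 and 3.37 CPM, against 47.2 and 45.2 CPM in Parental. Its log2 change was -3.75 (SE 0.32, edgeR adjusted p = 5.06e-07). At the other region outside the gene (189944248 to 189945105) M2 had 6.14 and 4.68 CPM, against 58.5 and 42.7 CPM in Parental. There the log2 change was -3.10 (SE 0.30, edgeR adjusted p = 1.56e-06). At the region inside the gene (190116486 to 190117007) M2 had 1.61 and 2.89 CPM, against 26.9 and 21.4 CPM in Parental, a change of -3.19. The inner region varied strongly between libraries, with 20.4 and 3.67 CPM in EM1 and 13.9 and 2.80 CPM in EM3.

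In EM2, 40 of the 195 (20.5%) were lower than in Parental and 1 (0.513%) was higher, against 6.17% and 3.02% of all regions. The median log2 change was -0.54, against 0.02 over all regions, and 171 of the 195 had a change below 0. The count of 41 calls was 16 without Parental replicate 1, 23 without Parental replicate 2 and 21 without EM2 replicate 1. The one rise was inside FOXP1, a forkhead repressor gene (chromosome 3, 70988132 to 70988606), with 22.9 and 18.5 CPM in EM2, against 6.58 and 6.31 CPM in Parental (1.63, SE 0.32, edgeR adjusted p = 0.00682). That call was lost without EM2 replicate 1 (adjusted p = 0.0622), without Parental replicate 1 (0.0683) and without Parental replicate 2 (0.0795).

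The lowest change in EM2 was -3.17 at the inner P3H2 region, with 3.79 and 1.35 CPM in EM2, against 26.9 and 21.4 CPM in Parental, a call lost without any 1 of the 4 libraries (edgeR adjusted p between 0.0659 and 0.136). Near NEK11, a kinase gene of the DNA damage checkpoint, the change was -2.38, with 3.79 and 2.38 CPM in EM2, against 19.2 and 13.8 CPM in Parental. A DAP region of the chromosome 5 block (10703002 to 10703412) fell by 2.35 on the log2 scale, with 2.09 and 3.49 CPM in EM2, against 14.7 and 14.6 CPM in Parental.

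In EM1 no region of the 195 was called by edgeR in either direction, against 0.341% higher and 0.287% lower of all regions. At an unadjusted p under 0.05, 2 were higher and 8 lower in EM1 than in Parental, against 6.17% and 4.17% of all regions, and the DESeq2 Wald test called 1. The log2 changes in EM1 ran from -1.04 to 0.85, with a median of -0.14.

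EM3 had 1 rise and 3 falls (0.513% and 1.54%), against 1.85% and 1.26% of all regions. SCCPDH rose by 1.35, while PRDM1, a transcriptional repressor gene, had -1.44, the nearer IRX2 region -1.21 and the POU5F1B region -0.88. Without EM3 replicate 1, Parental replicate 1 or Parental replicate 2 no call remained, and without EM3 replicate 2 the POU5F1B fall alone did.

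E had 6 rises (3.08%) and 13 falls (6.67%), against 5.27% and 6.31% of all regions, so both shares were near the background in this fit. At SCCPDH (chromosome 1, 246769313 to 246769649) E had 20.4 and 19.6 CPM, against 3.87 and 2.53 CPM in Parental, a log2 change of 2.56 (SE 0.30, edgeR adjusted p = 0.000606). Near DENND6A, an activator of Rab proteins, E had 18.9 and 29.8 CPM, against 4.95 and 5.64 CPM in Parental (2.14), a call lost without Parental replicate 1 (edgeR adjusted p = 0.112) or Parental replicate 2 (0.113). Near NSMCE2, a SUMO ligase gene of DNA repair, E had 5.41 and 3.67 CPM, against 15.4 and 13.9 CPM in Parental (-1.69). STK32C, a kinase gene, rose by 1.29, a call lost without E replicate 1 (edgeR adjusted p = 0.155), Parental replicate 1 (0.0998) or Parental replicate 2 (0.144). TAF1L, a TAF1 retrogene, had -1.46, lost without Parental replicate 2 (0.0779), and the inner P3H2 region had -2.70, lost without any 1 of the 4 libraries (0.131 to 0.148). The 19 calls in E were 10 without E replicate 1, the library with M2-like signal, 5 without Parental replicate 1 and 3 without Parental replicate 2. The part of that signal in the changes of E was not tested.

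At 75 of the 195 no clone of the 5 was called against Parental. Their median gap was 2.38, and their median level was 0.807 CPM in M1 and 10.3 CPM in Parental. The other 120 were called in at least 1 clone, 100 of them in M2, and had a median gap of 2.43. Calls were common over the whole table, where M2 alone had 32.1% of all regions called higher and 34.9% lower. The share of all regions called in at least 1 clone was not counted, so these counts cannot tell whether the 195 differ from the table.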

How the data were processed

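Chromatin accessibility was measured by ATAC-seq, with nuclei tagmented per the labels' protocols. The authors deposited raw counts per library in 65774 regions. The submitters' processing notes name the build hg38 and Bowtie2 2.2.6, MACS2 2.1.1, featureCounts, cutadapt 1.9.1, bcl2fastq 2.20.0.422, deepTools and Picard, without role or order. The sources used here do not give how peaks became shared regions. The deposited M1 peak list, whose fold column is a ratio per the file format, served for overlap only. The other peak lists were not used, since the clone in their names differs from the sample they belong to.

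Levels are counts divided by library totals. Comparisons with Parental used edgeR 4.0.16 (R 4.3.3) with TMM scaling, 7 group means over 14 libraries, a minimum count of 10 in filterByExpr (65771 regions left), a prior count of 2 and a common coefficient of variation of 0.208, and were tested on simulated data; DESeq2 1.42.0 was an alternative. SE is the log2 change divided by the root of F.

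Gene ends came from a RefSeq table of GRCh38.p14. The members and gene lists were chosen with earlier results of these data known. The text names the 15 largest gaps within 10 kb of a gene end, up to 3 per list, runs of 3 or more, the 3 regions on each side of the limit, up to 3 called rises and 3 falls per comparison within 50 kb of a gene end with non-overlapping libraries, and promoter overlaps. A further P3H2 fall in M2 is named beside these. Floors cover counting error only. One stretch of regions is not reported here.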

Additional observations from a re-analysis of the deposited data

How the results depend on the processing

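The number of regions closed in M1 only follows the rule's settings. It was 298 with a pseudocount of 0.25 CPM and 96 with 1 CPM, 490 with a gap of at least 1.5 and 30 with at least 3, and 88 when single libraries replaced group means. Leaving out M2 or EM2 as a group gave 3018 or 296. It stayed within 1.5 times of 195 with TMM factors (208), with both E libraries (200), with replicate 1 (208) or replicate 2 (251) libraries only, with any 1 other group left out, and without single libraries (180 to 265). The settings with TMM factors and with both E libraries kept 194 and 193 of the 195. Without M1 replicate 1, 171 of the 195 were kept and made up 64.5% of the regions then chosen, and without M1 replicate 2, 147 (75.4%) were kept. Without any 1 other library, 172 to 195 were kept. Over 18 settings, 14 of the 342 gaps of the 19 named members fell under the limit of 2, down to 1.03 at ELF3. These were at ELF3, CLDN1, TP63, NBAS, RIPK2 and the region of the KLHL6-AS1 window.

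Same-numbered libraries deviated together (correlation with Parental 0.12 in M2 to 0.41 in EM2), but there are only 2 numbers and the labels tie them to no shared batch, so they were not used as pairs. With the replicate block, calls against Parental were 121 in M2, 2 in EM1, 69 in EM2, 14 in EM3 and 40 in E. Shares of all regions called were not counted under this or the other alternative settings. These counts therefore have no background beside them. With only the 4 libraries compared, EM1 had 1 and EM3 had 13. The DESeq2 Wald test called 1 in EM1 and 30 in E. Leaving out 1 library gave 70 to 104 calls in M2, 0 in EM1, 16 to 47 in EM2, 0 to 4 in EM3 and 3 to 16 in E. DESeq2 size factors, library totals and no filter left every count within 1.5 times, and no named log2 change reversed. Library totals moved the median log2 change of all regions in M2 by -0.11. A lone library was assumed to vary like the other groups. M1 counts near 0 limit how far the depth of a loss can be told.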

Other observations

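A few further regions of the 195, chosen after their values were seen, had EGFR, KLF5, ETS2 or DUSP6 as the closest gene, from 6368 to 134502 bases away. None of the 65 regions assigned within 50 kb to genes of the EGFR family and its ligands was among the 195. Near EGFR, the gene of the epidermal growth factor receptor (chromosome 7, 54967277 to 54967825), the mean was 4.15 CPM in M1, 25.7 CPM in M2, 64.9 CPM in E and 45.8 CPM in Parental. Near KLF5, an epithelial transcription factor gene (chromosome 13, 73171292 to 73171706), it was 0.754 CPM in M1, 5.34 CPM in M2, 9.43 CPM in E and 12.7 CPM in Parental. Of 2 regions near ETS2, one (chromosome 21, 38907054 to 38907517) had 2.97 CPM in M1, 14.8 CPM in M2 and 36.7 CPM in Parental, and the other (38798509 to 38798815) had 1.41 CPM in M1, 9.99 CPM in M2 and 10.6 CPM in Parental. Near DUSP6, a phosphatase gene that dampens ERK signalling (chromosome 12, 89212278 to 89212733), M2 stood apart in the other direction, with 0.194 CPM in M1, 23.3 CPM in M2, 8.005 CPM in EM2 and 3.48 CPM in Parental.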
